A study of Homo sapiens with 48 samples.

Results

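The genes described here are 5 cytokines and 5 partners in their signalling: the interleukins IL1A, IL1B, IL6 and IL11, the related cytokine LIF, the receptor chains IL1R1, IL1RAP and IL6ST, the receptor antagonist IL1RN and the kinase IRAK1. They were taken by gene symbol from the expression table of the series, and all 10 were found among its 19509 genes with counts. The cells were IMR90, human fibroblasts from normal lung tissue. They carried an ER:RAS fusion with the G12V change, in which an oncogenic RAS protein stays inactive until 4-hydroxytamoxifen (4OHT) binds the oestrogen receptor part. Cells received 4OHT, or its solvent DMSO as the control, for 6 days. They were then transfected with 1 of 2 siRNAs against the splicing factor SF3B1 (siSF3B1-13, siSF3B1-16), 1 of 2 against the splicing factor RBM39 (siRBM39-06, siRBM39-08), or 1 of 2 non-targeting siRNAs (siNT1, siNT2), and kept for 2 days in medium with 0.5% serum. Each siRNA and treatment had 4 replicate libraries of captured mRNA, so the 48 libraries formed 6 groups of 8 when both siRNAs of a target were pooled. All cells were of 1 line, the DMSO controls carried the same fusion, and the study's methods describe replicates of its in vitro work as independent experiments. The labels do not say how these replicates were made, so p-values measure the spread between these libraries.

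Cells that enter senescence after RAS activation stop dividing and secrete a mixture of cytokines and proteases, the senescence-associated secretory phenotype. IL-1α and IL-1β, the products of IL1A and IL1B, bind the receptor IL1R1, which recruits the co-receptor IL1RAP and passes the signal through IRAK kinases to the transcription factor NF-κB, and IL1RN encodes an antagonist that occupies IL1R1 without signalling. IL-6, IL-11 and LIF act through receptors that share the signalling chain IL6ST, also called gp130, and NF-κB, C/EBPβ and AP-1 are known regulators of several cytokine genes of the secretome.

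To place these genes, the 200 bases before the transcription start were read from RefSeq promoters on GRCh38.p14. They are printed for the 4 cytokines that differed most between 4OHT and DMSO, with motif matches in capitals. 3 motifs were searched on both strands, AP-1 as TGANTCA, C/EBP as TTGCNNAA and NF-κB by its usual decamer. Of 35116 promoters of this length 5.38% held the AP-1 letters, 6.91% the C/EBP letters and 8.14% the NF-κB decamer.
IL1A, chr2:112784494-112784693, minus strand: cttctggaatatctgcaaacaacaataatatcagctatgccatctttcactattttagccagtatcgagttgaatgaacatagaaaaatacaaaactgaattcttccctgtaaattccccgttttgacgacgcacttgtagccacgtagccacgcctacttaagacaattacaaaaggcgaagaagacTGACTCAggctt
IL1B, chr2:112836780-112836979, minus strand: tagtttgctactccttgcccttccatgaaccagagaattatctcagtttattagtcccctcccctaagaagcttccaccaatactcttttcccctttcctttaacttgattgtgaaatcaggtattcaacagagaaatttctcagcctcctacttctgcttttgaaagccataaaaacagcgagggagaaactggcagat
IL6, chr7:22727000-22727199, plus strand: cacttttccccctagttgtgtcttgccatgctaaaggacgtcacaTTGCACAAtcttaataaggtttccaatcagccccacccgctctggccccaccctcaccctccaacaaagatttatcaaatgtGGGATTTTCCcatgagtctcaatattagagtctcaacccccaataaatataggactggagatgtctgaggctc
IL11, chr19:55370464-55370663, minus strand: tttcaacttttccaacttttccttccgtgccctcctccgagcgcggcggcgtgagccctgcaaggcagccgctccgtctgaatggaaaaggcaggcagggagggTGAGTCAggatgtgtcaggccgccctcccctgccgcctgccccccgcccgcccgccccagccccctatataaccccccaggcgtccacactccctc

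An AP-1 match lay 12 bases before the start of IL1A and 96 bases before that of IL11. RefSeq gave a second, downstream start for IL1A, whose window (chr2:112784401-112784600, not printed) held the same match 105 bases and another 55 bases before it. IL6 held a C/EBP match 155 bases and an NF-κB match 73 bases before its start. In IL1B these letters were not in this window. Of the genes not printed, an NF-κB match lay 53 bases before the start of IL6ST and 114 bases before that of IRAK1. IL1R1, IL1RAP and IL1RN held no match, and LIF had no promoter entry. A match is a description of the letters only, and binding was not measured in these libraries.

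The libraries held 31467221 to 52734636 counts each. SF3B1 fell to 25.3 to 35.2 CPM, counts scaled to the library size with TMM factors, in the siSF3B1 libraries from 311 to 396 CPM with siNT, and RBM39 to 13.7 to 30.96 CPM in the siRBM39 libraries from 115 to 185 CPM. With siSF3B1 the mean of RBM39 was 302 CPM against 170 CPM with siNT in DMSO, and 251 against 120 CPM in 4OHT. With siRBM39 the mean of SF3B1 was 492 CPM against 359 CPM with siNT in DMSO, and 402 against 328 CPM in 4OHT. All 8 fibroblast markers were detected, and the 6 leukocyte markers, which would mark the usual producers of IL-1β, summed to 0.567 to 1.74 CPM in each library. With siNT, 7 of the 8 fibroblast markers were lower in 4OHT (summed level 51970 to 59092 CPM in DMSO and 14364 to 15169 CPM in 4OHT), and the 2 endothelial markers in the table summed to 1.47 to 2.02 CPM in DMSO and 3.21 to 4.31 CPM in 4OHT. Of 4 genes of proliferation and senescence, MKI67 had a mean of 17.4 CPM in DMSO and 1.46 CPM in 4OHT with siNT, and CDKN1A 950 and 1693 CPM. In DMSO, MKI67, CCNA2, LMNB1 and CDKN1A had 17.4, 12.7, 18.9 and 950 CPM with siNT. They had 4.25, 3.53, 7.99 and 1629 CPM with siSF3B1, and 14.6, 10.8, 17.5 and 1369 CPM with siRBM39. The part of these shifts in the results below was not tested. One library stood apart, replicate 4 of siRBM39-08 in 4OHT, which correlated at 0.916 with the other libraries of its siRNA, where the remaining 47 libraries reached at least 0.98. Its 3 epithelial markers summed to 33.96 CPM, led by KRT5, against 2.06 to 5.15 CPM in the 7 others of its group, and results that rest on it are given with and without it.

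Of the 10 genes, 8 passed the filter of at least 10000 counts over the 48 libraries, leaving 9991 genes for edgeR's quasi-likelihood test. IL1RAP, with 8207 counts, and IL1RN, with 191, did not. IL1A, IL1B and IL6 passed only through their 4OHT libraries, since they held 241, 608 and 1152 counts over all 24 DMSO libraries, so a difference between the treatments was a condition of their being tested. For that reason the counts of genes called below are descriptions. IL11 held 9279 counts over the DMSO libraries, also under the minimum, but a level in 4OHT like that in DMSO would have let it pass.

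Levels of different genes were compared per length, in cRPKM, the mappability-corrected reads per kilobase scaled to the reads of the library that the authors deposited. With siNT in DMSO, IL6ST was highest at 80.0 ± 4.08 cRPKM (SD, n = 8), followed by IRAK1 at 33.3 ± 1.66, IL1R1 at 27.4 ± 1.72 and LIF at 21.6 ± 2.30 cRPKM. The remaining genes lay far below, from IL11 at 3.42 ± 0.338 and IL1RAP at 1.09 ± 0.137 cRPKM through IL6 at 0.909 ± 0.132 to IL1B at 0.184 ± 0.0693 and IL1A at 0.139 ± 0.0653 cRPKM, and the last pair differed by less than their SD. IL1RN was at 0 in every library of that group.

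With siNT in 4OHT the order had changed. IL1B led at 2023 ± 169 cRPKM, ahead of IL6ST at 109 ± 3.60 cRPKM. LIF at 85.1 ± 4.69, IL6 at 80.8 ± 10.5 and IL11 at 74.0 ± 6.98 cRPKM followed, and neighbours among these 3 differed by less than the SD of IL6. IRAK1 was at 61.7 ± 3.57, IL1A at 25.1 ± 1.40, IL1R1 at 18.05 ± 1.04, IL1RAP at 2.09 ± 0.186 and IL1RN at 0.115 ± 0.0621 cRPKM. IL1B had moved from near the bottom of the order to the top, and the receptor IL1R1 had moved down it.

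The first comparison asked how RAS activation changed these genes in cells with a non-targeting siRNA. All 5 cytokines rose, IL1B most, while the receptor IL1R1 fell and IL6ST and IRAK1 rose by less than 2-fold. By edgeR's adjusted p all 8 tested genes were called, 7 higher and 1 lower, in a comparison that called 78.1% of all genes tested and 39% as higher. All 5 cytokines also passed a 2-fold minimum in the upward direction, which 7.61% of all genes did, and 18.5% did in either direction. In bulk RNA a change in the number of cells that express a gene and a change in RNA per cell cannot be told apart.

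IL1B (chr2:113587328-113594393 on GRCh37, minus strand) ranged from 0.109 to 0.491 CPM with a median of 0.296 CPM in DMSO, or 4 to 19 reads a library, and from 2886 to 3494 CPM with a median of 3165 CPM in 4OHT. No library of one group came near the other. The fitted log2 fold change was 13.41 ± 0.22 (SE, adjusted p = 9.45e-43), or 10905-fold, and its size rests on the few reads in DMSO.

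IL1A (chr2:113531502-113542070, minus strand), which encodes the IL-1 form that also acts at the cell surface, had 0.0547 to 0.465 CPM with a median of 0.273 CPM in DMSO, from 2 to 18 reads. In 4OHT it had 46.8 to 56.0 CPM with a median of 51.4 CPM. All 4OHT libraries were higher, with a log2 fold change of 7.49 ± 0.21 (adjusted p = 1.79e-33).

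IL6 (chr7:22765503-22771621, plus strand), which drives acute-phase and inflammatory responses, ranged from 1.07 to 1.69 CPM with a median of 1.32 CPM in DMSO and from 102 to 139.9 CPM with a median of 115 CPM in 4OHT. The groups did not overlap, and the log2 fold change was 6.48 ± 0.19 (adjusted p = 1.44e-32).

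IL11 (chr19:55875750-55881831, minus strand), a cytokine made by stromal cells, ranged from 6.59 to 8.54 CPM with a median of 7.13 CPM in DMSO and from 139 to 177 CPM with a median of 159 CPM in 4OHT. It rose by 4.44 ± 0.18 on the log2 scale (adjusted p = 8.10e-27). LIF (chr22:30636442-30642748, minus strand), known for its action on stem cells, was already well expressed in DMSO at 65.4 to 94.0 CPM with a median of 84.2 CPM, and reached 309 to 363 CPM with a median of 333 CPM in 4OHT. Its rise of 1.98 ± 0.08 (adjusted p = 3.62e-26) was the smallest among the cytokines, again with no overlap.

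The receptor side moved differently. IL1R1 (chr2:102681004-102796334, plus strand) had 126 to 152 CPM with a median of 134 CPM in DMSO and 82.4 to 97.5 CPM with a median of 90.2 CPM in 4OHT. It fell by 0.59 ± 0.09 on the log2 scale (adjusted p = 1.50e-07), with all 4OHT libraries lower. IL1RAP (chr3:190231840-190377539, plus strand), its co-receptor, was tested among the 12145 genes with at least 5 counts in each library, of which 77.2% were called. It rose from 1.76 to 2.78 CPM with a median of 2.38 CPM in DMSO to 3.70 to 5.08 CPM with a median of 4.61 CPM in 4OHT, a log2 fold change of 0.99 ± 0.14 (edgeR adjusted p = 2.27e-08).

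IL1RN (chr2:113856892-113891593, plus strand), the antagonist, had 0 counts in 8 of 8 DMSO libraries with siNT and 61 counts over the 8 libraries in 4OHT, 3 to 13 each. Against a floor of 3 counts over the DMSO group, or 0.00951 CPM, its level in 4OHT was at least 20.4-fold higher. The same rise from near 0 was seen with siSF3B1, where 63 counts stood against 2 (ratio 33.3, 95% interval 8.84 to 281 from exact binomial limits), and with siRBM39, where 59 stood against 6 (ratio 10.7, interval 4.65 to 30.4). These intervals cover counting error only, and per length the antagonist, at 0.115 cRPKM with siNT in 4OHT, was far below both ligands.

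IL6ST (chr5:55230923-55290850, minus strand) had 676 to 779.8 CPM with a median of 687 CPM in DMSO and 918 to 1005 CPM with a median of 980.0 CPM in 4OHT. The rise was 0.45 ± 0.14 (adjusted p = 0.00360), with no overlap. IRAK1 (chrX:153275957-153285353, minus strand) had 109.8 to 127 CPM with a median of 119 CPM in DMSO and 205 to 236 CPM with a median of 213 CPM in 4OHT. It rose by 0.90 ± 0.07 (adjusted p = 2.39e-15), also with no overlap. Groups of siNT libraries did not overlap for any of the 8 tested genes, where 71.4% of all genes showed no overlap.

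**Figure D1:**
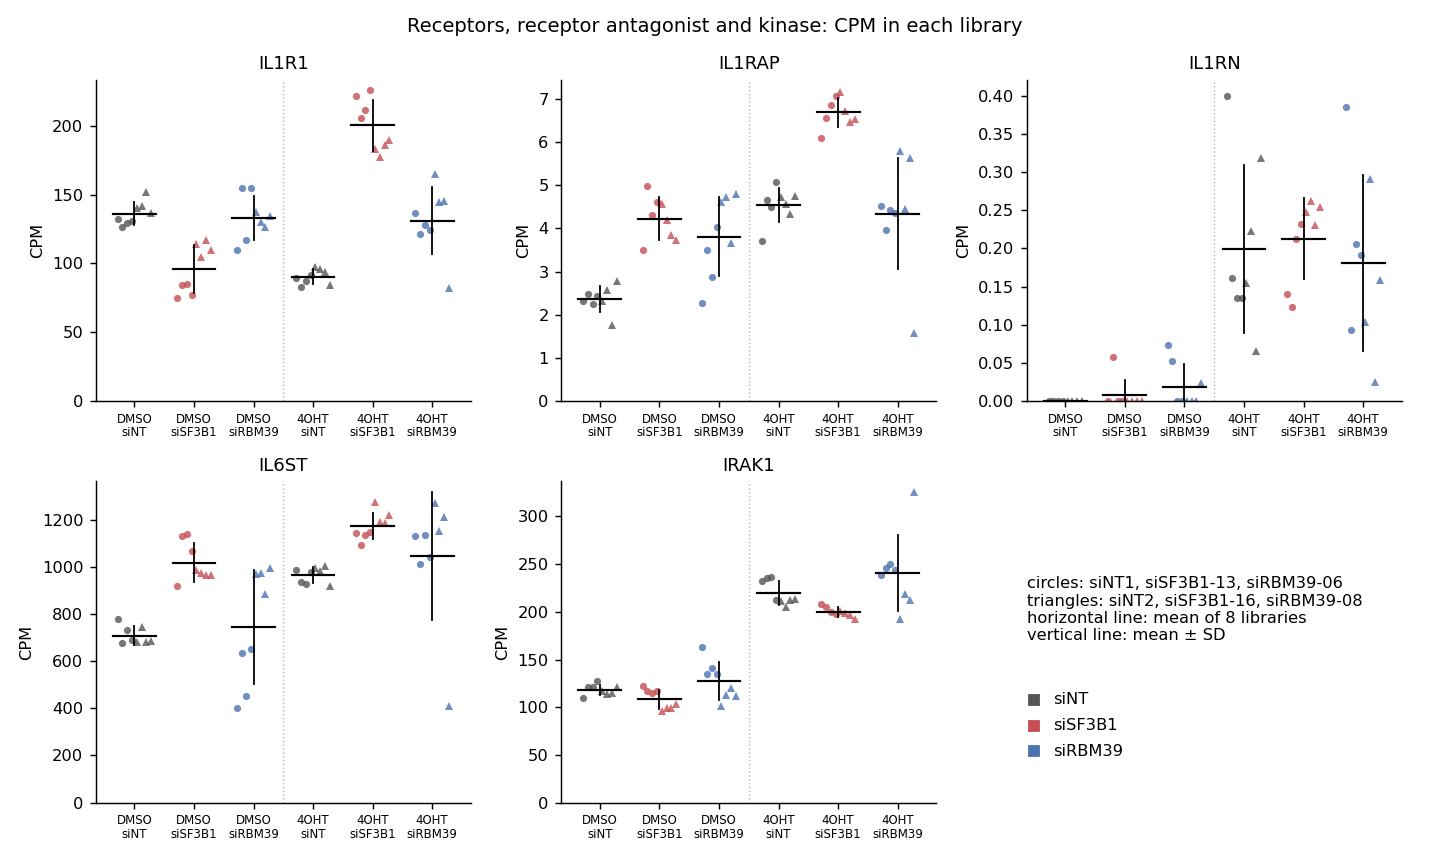
CPM (TMM-scaled, linear axis from 0) of the receptor chains IL1R1, IL1RAP and IL6ST, the antagonist IL1RN and the kinase IRAK1 in each library, drawn as for the cytokines. IL1R1 has its lowest mean in 4OHT with siNT (82.4 to 97.5 CPM) and its highest with siSF3B1 (177 to 226 CPM), and 1 siRBM39-08 library in 4OHT stands apart at 409 CPM of IL6ST and 325 CPM of IRAK1.

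The next comparison asked how SF3B1 depletion altered the genes in RAS-activated cells. IL6 and IL1A fell, IL11 and IL1R1 rose by more than 2-fold, and IL1B and LIF moved by small amounts in opposite directions. In 4OHT, siSF3B1 against siNT called 6 of the 8 tested genes, 3 higher and 3 lower, in a comparison that called 77.0% of all genes. By 2-fold or more 3 were called, where 11.6% of all genes were, and for 7 of the 8 genes the groups did not overlap, where 68.9% of all genes showed no overlap.

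IL6 ranged from 26.5 to 39.6 CPM with a median of 31.9 CPM with siSF3B1 in 4OHT, far below the 102 to 139.9 CPM of the siNT group. It fell by 1.85 ± 0.15 on the log2 scale (adjusted p = 9.77e-16), to 27.7% of the siNT level. IL1A ranged from 19.3 to 41.98 CPM with a median of 29.96 CPM, against 46.8 to 56.0 CPM with siNT, and fell by 0.78 ± 0.14 (adjusted p = 1.51e-06). LIF ranged from 256 to 296 CPM with a median of 272 CPM and fell by 0.28 ± 0.08 (adjusted p = 0.00191). All 8 siSF3B1 libraries were below all 8 siNT libraries for these 3 cytokines.

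IL11 went the other way, with 299 to 581 CPM and a median of 436 CPM against 139 to 177 CPM with siNT. Its log2 fold change was 1.45 ± 0.16 (adjusted p = 1.62e-11), and no library overlapped. IL1R1 had 177 to 226 CPM with a median of 198 CPM, more than any other group, and rose by 1.15 ± 0.09 (adjusted p = 2.47e-15). The co-receptor IL1RAP, at 6.11 to 7.17 CPM with a median of 6.64 CPM, rose by 0.57 ± 0.13 in the test with the lower filter (edgeR adjusted p = 0.000200), where 75.3% of genes were called.

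IL1B ranged from 3588 to 4402 CPM with a median of 3955 CPM, above all siNT libraries, a rise of 0.33 ± 0.12 (adjusted p = 0.0131). That call was lost when the libraries numbered replicate 2 (adjusted p = 0.089) or replicate 3 (adjusted p = 0.079) were left out. IL6ST ranged from 1093 to 1275 CPM, above all siNT libraries, with a log2 difference of 0.28 ± 0.14 (adjusted p = 0.0629), and IRAK1 from 192 to 208 CPM with a difference of -0.14 ± 0.07 (adjusted p = 0.0825). Neither passed the test with all 48 libraries. Both passed without the library that stood apart (adjusted p = 0.015 and 0.040), with 1 mean per siRNA (0.024 and 0.030) and in a fit on only the groups compared (2.09e-06 and 1.03e-05).

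In DMSO, siSF3B1 against siNT called 6 of the 8 genes, where 72.7% of all genes were called. IL1R1 had 74.7 to 117 CPM with a median of 94.7 CPM and fell by 0.51 ± 0.09 (adjusted p = 4.07e-06), opposite to its direction in 4OHT. IL6ST had 918 to 1139 CPM with a median of 979 CPM and rose by 0.52 ± 0.14 (adjusted p = 0.000922). For these 2 genes alone among the 8 the groups did not overlap, where 54.9% of all genes showed no overlap, and by 2-fold or more 1 gene, IL1B, was called, where 7.59% of all genes were.

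IL1B in DMSO rose by 1.40 ± 0.27 (adjusted p = 1.08e-05) to 0.368 to 1.57 CPM, still 13 to 61 reads a library, and IL11 by 0.63 ± 0.17 (adjusted p = 0.000956) to 7.94 to 15.4 CPM, both with overlap. With siSF3B1-16 alone, IL11 rose by 0.20 in limma-voom (adjusted p = 0.085) and by 0.19 in DESeq2 (adjusted p = 0.054), neither a call. By edgeR its rise with siSF3B1-16 was called with all libraries, but not without replicate 1, 2, 3 or 4 (adjusted p from 0.059 to 0.128). The calls of IL1A (-0.90 ± 0.38, adjusted p = 0.0328) and LIF (0.18 ± 0.08, adjusted p = 0.0423) were lost in 5 and in 6 of the other settings tried, respectively. IL6, at 0.437 to 1.38 CPM (17 to 71 reads a library) against 1.07 to 1.69 CPM with siNT, was not called with 6 group means. It was called lower with DESeq2 (-0.45, adjusted p = 0.0265), and by edgeR with 1 mean per siRNA (-0.49, adjusted p = 0.00190) and without replicate 4 (-0.61, adjusted p = 0.045). IL1RAP rose by 0.87 ± 0.14 (edgeR adjusted p = 5.32e-07) under the lower filter, which called 72.4% of genes.

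RBM39 depletion was compared with the same siNT libraries, so its values share their controls with those of siSF3B1 and are set beside them only as values. In 4OHT, 4 cytokines fell, IL1R1 rose, and no call was made for IL11, IL6ST or IRAK1. The test called 5 of the 8 genes, where 56.4% of all genes were called, and 1 of them, IL6, by 2-fold or more, where 2.29% were.

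IL6 had 19.95 to 44.9 CPM with a median of 24.8 CPM with siRBM39 in 4OHT, and fell by 1.97 ± 0.15 on the log2 scale (adjusted p = 6.43e-16), to 25.6% of the siNT level. IL1B had 1479 to 2374 CPM with a median of 1622 CPM and fell by 0.79 ± 0.12 (adjusted p = 5.03e-07). LIF, at 181 to 299 CPM with a median of 231 CPM, fell by 0.50 ± 0.08 (adjusted p = 1.06e-06). All siRBM39 libraries were below all siNT libraries for these 3 genes and for IL1A, and 25.1% of all genes showed no overlap.

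IL1A had 20.1 to 41.7 CPM with a median of 39 CPM and fell by 0.50 ± 0.13 (adjusted p = 0.00141). Its lowest value was the library that stood apart, and without it the 7 others ranged from 34.5 to 41.7 CPM, with a log2 fold change of -0.41 ± 0.12 (edgeR adjusted p = 0.00214). IL1R1 rose by 0.54 ± 0.09 (adjusted p = 3.05e-06), at 81.9 to 165 CPM with a median of 132 CPM, and only the library that stood apart, the lowest of the group, was not above all siNT libraries, since the 7 others had 121 to 165 CPM. Without it the rise of IL1R1 was 0.61 ± 0.08 (edgeR adjusted p = 9.49e-09).

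IL11 had 123 to 241 CPM with a median of 151 CPM with siRBM39 in 4OHT, a log2 difference of -0.02 ± 0.15 (adjusted p = 0.903), against the rise seen with siSF3B1. The highest value was the library that stood apart, and without it IL11 reached 170 CPM and differed by -0.14 ± 0.15 (edgeR adjusted p = 0.423). IL6ST differed by 0.12 ± 0.14 (adjusted p = 0.497), and by 0.24 ± 0.11 without that library (edgeR adjusted p = 0.0609). IRAK1 differed by 0.13 ± 0.07 (adjusted p = 0.122), and by 0.06 ± 0.06 without it (edgeR adjusted p = 0.450), but was called with 1 mean per siRNA (0.043) and without replicate 1 (0.026). IL1RAP differed by -0.06 ± 0.14 under the lower filter (edgeR adjusted p = 0.735), where 55.4% of genes were called, and by 0.06 ± 0.10 without the same library (edgeR adjusted p = 0.646).

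In DMSO, siRBM39 against siNT called 3 of the 8 genes, all higher, where 46.1% of all genes were called and 23.9% as higher. No gene of the 8 was without overlap, where 20.5% of all genes were, and IL1B alone was called by 2-fold or more, where 1.29% of all genes were. IL1B rose by 1.44 ± 0.26 (adjusted p = 1.31e-05) to 0.490 to 1.13 CPM, with overlap. The rises of IL11 (0.42 ± 0.17, adjusted p = 0.0382) and LIF (0.24 ± 0.08, adjusted p = 0.0130) were lost when libraries were left out, in both cases without replicate 1 (adjusted p = 0.168 and 0.107) or replicate 3 (0.122 and 0.069), and for IL11 also without replicate 2 (0.081) and with limma-voom (0.109). IL1RAP rose by 0.69 ± 0.14 (edgeR adjusted p = 7.48e-05) under the lower filter, which called 45% of genes.

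Whether a knockdown acted differently in RAS-activated cells was tested as an interaction, the log2 effect in 4OHT minus that in DMSO. For siSF3B1 it was called for 5 of the 8 genes, where 37.8% of all genes were called, and for 3 by 2-fold or more, where 2.23% were. IL1R1 had the largest value at 1.66 ± 0.13 (adjusted p = 3.19e-14), followed in size by IL6 at -1.41 ± 0.26 (adjusted p = 2.78e-05), IL1B at -1.07 ± 0.30 (adjusted p = 0.00360), IL11 at 0.82 ± 0.23 (adjusted p = 0.00350) and LIF at -0.46 ± 0.11 (adjusted p = 0.00117). IL1RAP had -0.30 ± 0.19 under the lower filter (edgeR adjusted p = 0.235), which called 36.6% of genes. IL6ST, not among the 5 called, was called in the fit on only the groups compared (-0.25, edgeR adjusted p = 0.000605). The negative value of IL1B came from a rise in both treatments that was larger in DMSO. That rise in DMSO was from 4 to 19 reads a library with siNT to 13 to 61 with siSF3B1. IL1B and IL6 were tested only because of their 4OHT libraries.

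For siRBM39 the interaction was called for 4 of the 8 genes, where 14.1% of all genes were called, and for 2 by 2-fold or more, where 0.430% were. IL1B had -2.23 ± 0.29 (adjusted p = 1.36e-07), with a rise in DMSO and a fall in 4OHT. The rise in DMSO was from 4 to 19 reads a library with siNT to 21 to 52 with siRBM39. IL1B and IL6, the 2 counted by 2-fold or more, were tested only because of their 4OHT libraries. IL6 had -1.86 ± 0.25 (adjusted p = 4.08e-07), LIF -0.74 ± 0.11 (adjusted p = 4.98e-06) and IL1R1 0.57 ± 0.13 (adjusted p = 0.00151), the last not called without replicate 3 (0.47, adjusted p = 0.072). IL11 had -0.44 (edgeR adjusted p = 0.205), and -0.55 ± 0.22 without the library that stood apart (edgeR adjusted p = 0.0568). It was called with 1 mean per siRNA (-0.43, edgeR adjusted p = 0.000171). IL1RAP had -0.75 ± 0.20 under the lower filter (edgeR adjusted p = 0.00611), which called 13.5% of genes.

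Induction by 4OHT persisted in the depleted cells. With siSF3B1, 7 of the 8 genes were called, all higher, where 75.7% of all genes were called and 37.6% as higher. By 2-fold or more 6 were called, where 17% of all genes were, and 7 showed no overlap, where 58.7% did. IL1A rose by 7.61 ± 0.23, IL1B by 12.34 ± 0.21, IL6 by 5.07 ± 0.19, IL11 by 5.26 ± 0.19 and LIF by 1.52 ± 0.08 on the log2 scale (adjusted p from 1.95e-42 to 8.43e-22). IL1R1, which fell with siNT, rose by 1.06 ± 0.09 (adjusted p = 2.32e-14), and IL6ST differed by 0.21 ± 0.14 (adjusted p = 0.175), called only in the fit on the groups compared (0.17, adjusted p = 0.00284).

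With siRBM39 the test again called 7 of the 8 genes, all higher, where 75.5% of all genes were called and 39.1% as higher. By 2-fold or more 5 were called, where 16.6% of all genes were, and 6 showed no overlap, where 36.1% did. IL1A rose by 6.93 ± 0.20, IL1B by 11.19 ± 0.20, IL6 by 4.62 ± 0.18, IL11 by 4.00 ± 0.18 and LIF by 1.24 ± 0.08 (adjusted p from 1.75e-41 to 1.41e-18). IL1R1 differed by -0.02 ± 0.09 (adjusted p = 0.826), or 0.05 ± 0.08 without the library that stood apart (edgeR adjusted p = 0.591), with medians of 132 CPM in both treatments. IL6ST rose by 0.49 ± 0.14 (adjusted p = 0.00169) with overlap, a call that was lost without replicate 3 (0.36, adjusted p = 0.061) and in the fit on only the groups compared (0.42, adjusted p = 0.103). IL1RAP, called with siNT and with siSF3B1 (0.68 ± 0.13, edgeR adjusted p = 1.36e-05, where 74.9% of genes were called), differed by 0.24 ± 0.14 with siRBM39 (adjusted p = 0.111, where 75.2% were) and was called without the library that stood apart (0.35 ± 0.10, adjusted p = 0.00214).

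The kinase IRAK1 gave nearly equal values in the 3 settings, rising by 0.90 ± 0.07 with siNT, 0.88 ± 0.07 with siSF3B1 and 0.92 ± 0.07 with siRBM39, and its interaction values were -0.01 ± 0.10 (adjusted p = 0.941) and 0.02 ± 0.10 (adjusted p = 0.930), the second being -0.05 ± 0.09 without the library that stood apart (adjusted p = 0.733). A p that misses the threshold does not show that the effects were equal.

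The 2 knockdowns were compared directly in 4OHT, which uses no siNT library in the contrast. Of the 8 genes 5 were called, where 71.4% of all genes were called, and 2 by 2-fold or more, where 7.61% were. With siSF3B1, IL11 was higher than with siRBM39 by 1.48 ± 0.16 (adjusted p = 1.36e-11), IL1B by 1.12 ± 0.12 (adjusted p = 4.77e-11) and IL1R1 by 0.61 ± 0.09 (adjusted p = 1.04e-07), each without overlap, where 38.9% of all genes showed none. LIF was higher by 0.22 ± 0.08 (adjusted p = 0.0141) and IRAK1 lower by 0.27 ± 0.07 (adjusted p = 0.00111), both with overlap. The call of LIF was lost without replicate 1 (adjusted p = 0.070) or 3 (adjusted p = 0.083) and in the fit on only the groups compared (adjusted p = 0.146). IL1RAP was higher by 0.63 ± 0.13 under the lower filter (edgeR adjusted p = 6.17e-05), which called 69.7% of genes. IL6 differed by 0.12 ± 0.14 (adjusted p = 0.466), while IL1A, at -0.27 ± 0.13 (adjusted p = 0.0647), was called without the library that stood apart (-0.36 ± 0.12, adjusted p = 0.00508).

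Each siRNA was then tested on its own against the pooled siNT libraries, with 1 mean per siRNA and treatment. Over 8 such contrasts and 8 genes, 46 of 64 values were called. Among all genes, siSF3B1-13 called 76.2% in DMSO and 79.2% in 4OHT, siSF3B1-16 71.9% and 75.4%, siRBM39-06 59.7% and 58.6%, and siRBM39-08 49.5% and 62.5%. In 4OHT both siRNAs of a target gave calls in the same direction for IL1A, IL1B, IL6, LIF and IL1R1, and both SF3B1 siRNAs did so for IL11. Of these, IL1B with siSF3B1-16 was not called without replicate 2 (adjusted p = 0.153) or 3 (0.097), nor IL1A with siRBM39-06 without replicate 2 (0.078). IL6ST with siRBM39-08 went from 0.07 (adjusted p = 0.694) to 0.33 ± 0.08 (edgeR adjusted p = 0.000273) when the library that stood apart was left out.

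The sizes differed between siRNAs of 1 target. In 4OHT IL11 had 549 to 581 CPM with siSF3B1-13 and 299 to 322 CPM with siSF3B1-16, and the second was lower by 0.89 ± 0.08 on the log2 scale (adjusted p = 1.85e-11). IL1A had 19.3 to 23.1 CPM with siSF3B1-13 and 36.8 to 41.98 CPM with siSF3B1-16, a difference of 0.86 ± 0.13 (adjusted p = 2.98e-06). IL6 had 26.5 to 29.7 CPM with siSF3B1-13 and 34.2 to 39.6 CPM with siSF3B1-16 (0.39 ± 0.11, adjusted p = 0.00732), a call lost without replicate 3 (0.078). These were the 3 of 8 genes called between the SF3B1 siRNAs in 4OHT, where 27.9% of all genes were called, and 6 of 8 were called between them in DMSO, where 37.3% were. Without the library that stood apart, IL1B (-0.21, adjusted p = 0.00513) and IL1R1 (-0.23, adjusted p = 0.00517) were also called in 4OHT.

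Between the RBM39 siRNAs 4 of 8 genes were called in 4OHT and 4 in DMSO, where 31.6% and 47.6% of all genes were called. In 4OHT IL6 had 19.95 to 23.9 CPM with siRBM39-06 and 25.7 to 44.9 CPM with siRBM39-08 (0.84 ± 0.11, adjusted p = 1.91e-07), and LIF had 181 to 199.5 CPM and 262 to 299 CPM (0.54 ± 0.06, adjusted p = 2.36e-09). IL1B fell by 0.54 with siRBM39-08 (edgeR adjusted p = 4.57e-06) and was higher with it than with siRBM39-06 by 0.53 (edgeR adjusted p = 0.000158). Without the library that stood apart this difference was 0.63 ± 0.07 (edgeR adjusted p = 2.38e-10). IL11 moved in opposite directions with these siRNAs, by -0.28 ± 0.07 with siRBM39-06 (adjusted p = 0.000814) and 0.20 ± 0.07 with siRBM39-08 (adjusted p = 0.0117), and the second was not called without the library that stood apart (0.04 ± 0.05, adjusted p = 0.446). Without it IL1R1 (0.25, adjusted p = 0.00682) and IRAK1 (-0.23, adjusted p = 0.000340) were called between these siRNAs.

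In DMSO, IL6ST had 401 to 652 CPM with siRBM39-06, below all siNT libraries (-0.41 ± 0.14, adjusted p = 0.0140), and 884 to 996 CPM with siRBM39-08, above all of them (0.43 ± 0.14, adjusted p = 0.00850). The first call was lost without replicate 1 (adjusted p = 0.177) or 3 (0.159), or without replicate 1 of siRBM39-06 alone (0.103), and the second without replicate 2 (0.073). The pooled siRBM39 value for IL6ST in DMSO was 0.07 ± 0.14. The direct difference between them was 0.84 ± 0.16 (adjusted p = 5.94e-05). Between siNT1 and siNT2, with all libraries, 0 of the 8 genes were called by edgeR, DESeq2 or limma-voom in either treatment, where edgeR called 1.63% of all genes in DMSO and 0.350% in 4OHT. At an unadjusted p under 0.05 edgeR gave 0 of the 8 in DMSO, where it gave 1025 of the 9991 genes tested. In 4OHT it gave 3, IL1B, IL6 and IL11, where it gave 615 of the 9991. These 3 were called when the library that stood apart was left out of the fit (adjusted p = 0.0472, 0.00145 and 0.00379).

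**Figure D2:**
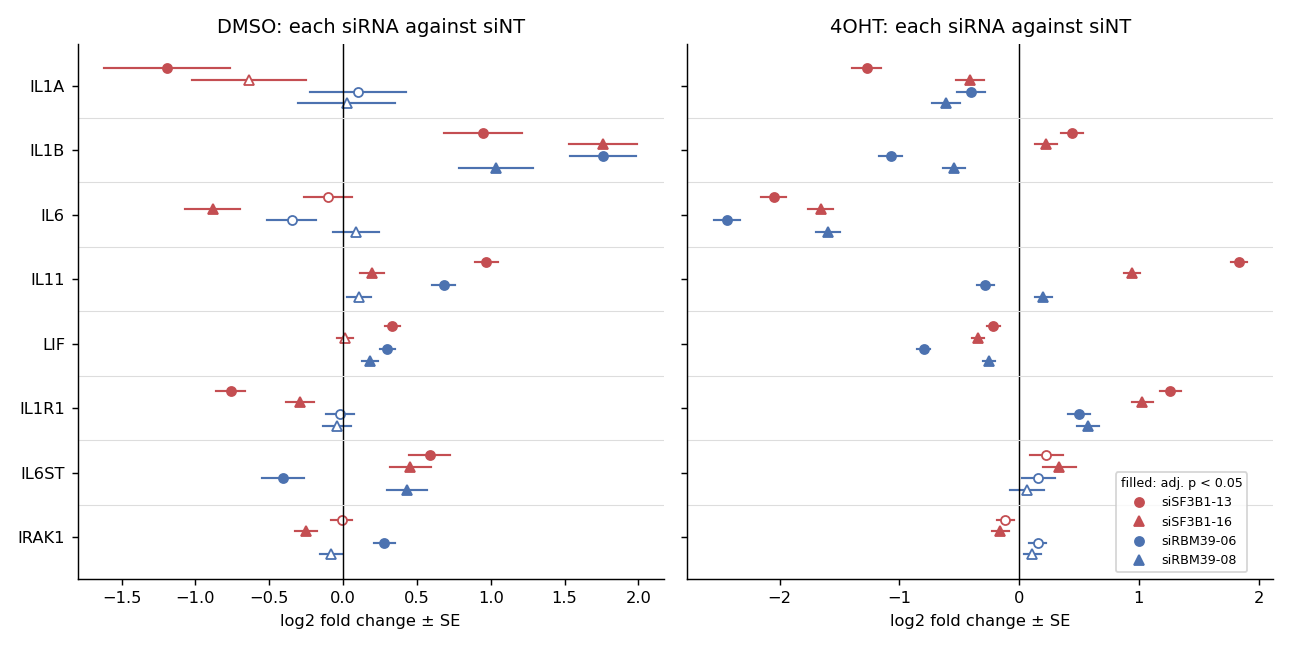
Log2 fold change ± SE of each siRNA (4 libraries) against the 8 pooled siNT libraries in DMSO (left) and 4OHT (right) for the 8 tested genes, filled where edgeR's adjusted p was under 0.05. In 4OHT all 4 siRNAs lie left of 0 for IL6 (-2.44 to -1.60), and the SF3B1 siRNAs lie right of 0 for IL11 and IL1R1.

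The exons and introns of these genes were followed by percent spliced in (PSI), the share of transcripts that include an exon or retain an intron. Of the 12921 events that passed the coverage and range filters, 12 lay in the 10 genes, 7 in IL6ST, 4 in IRAK1 and 1 in IL1R1. No event in IL1A, IL1B, IL6, IL11, LIF, IL1RAP or IL1RN had a PSI with the required coverage in each library. The splicing of the cytokine genes was therefore not followed here. An event was called at limma's adjusted p under 0.05 on logit PSI together with a difference of at least 5 points.

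SF3B1 depletion lowered inclusion of 3 exons and raised retention of 1 intron, calling 4 of the 12 events in DMSO and 4 in 4OHT, where 20.4% and 23.8% of all events were called. The largest were an exon of 150 bases (HsaEX6053853, chrX:153277980-153278129 on GRCh37, minus strand), the penultimate coding exon of IRAK1, and an intron of 243 bases (HsaINT0081949, chrX:153283807-153284049) of the same gene, both found on GRCh37 by their own and their neighbours' lengths. They are printed because they carry the splicing result, with the exon in capitals between 50 and 10 bases of intron, and with the first and last pair of bases of the intron in capitals.
IRAK1 exon: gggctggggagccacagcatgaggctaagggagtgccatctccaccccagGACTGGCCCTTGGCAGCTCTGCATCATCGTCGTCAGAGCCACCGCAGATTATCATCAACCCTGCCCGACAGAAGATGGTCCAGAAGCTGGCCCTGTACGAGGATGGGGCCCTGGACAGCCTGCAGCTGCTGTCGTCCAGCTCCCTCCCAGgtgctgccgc
IRAK1 intron: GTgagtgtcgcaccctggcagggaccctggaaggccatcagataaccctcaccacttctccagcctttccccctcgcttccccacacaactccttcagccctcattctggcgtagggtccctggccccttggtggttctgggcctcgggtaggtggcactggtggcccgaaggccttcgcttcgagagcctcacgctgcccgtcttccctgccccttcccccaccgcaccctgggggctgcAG

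Inclusion of the IRAK1 exon was 98.2 to 100% with a median of 98.8% in DMSO with siNT and 70.5 to 82.1% with a median of 75.3% with siSF3B1. In 4OHT it was 96.7 to 99.0% with siNT and 68.2 to 76.2% with siSF3B1. The exon fell by 23.4 points in DMSO (adjusted p = 1.44e-16) and by 25.9 points in 4OHT (adjusted p = 1.91e-15), with no overlap in either, and 149 to 497 reads supported each of these values.

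Both SF3B1 siRNAs gave similar inclusion, a mean of 75.8 ± 4.75% (SD, n = 4) with siSF3B1-13 and 75.6 ± 0.662% with siSF3B1-16 in DMSO, and 70.0 ± 2.29% and 74.6 ± 2.10% in 4OHT. With siRBM39 the exon was included at 89.5 to 95.7% in 4OHT and fell by 6.16 points (adjusted p = 1.18e-05), the single call among the 12 events where 6.34% of all events were called. In DMSO siRBM39 differed by -3.28 points (adjusted p = 0.00109), under the 5-point minimum, and 0 of the 12 events were called by limma where 5.65% of all events were, with 4 at an unadjusted p under 0.05. The 150 bases are a multiple of 3, so skipping keeps the reading frame.

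The IRAK1 intron was retained at 0 to 4.55% with a median of 1.69% with siNT and 10 to 18.9% with a median of 11.7% with siSF3B1 in DMSO. In 4OHT it was retained at 1.01 to 4.35% with siNT and 9.68 to 35.2% with a median of 21.6% with siSF3B1. Its rise was 11.5 points in DMSO (adjusted p = 7.94e-09) and 20.6 points in 4OHT (adjusted p = 3.22e-10), without overlap, on 22 to 88 reads each. In 4OHT the mean was 28.97 ± 5.48% with siSF3B1-13 and 16.97 ± 5.11% with siSF3B1-16, and whether the change differed between treatments was not tested.

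**Figure D3:**
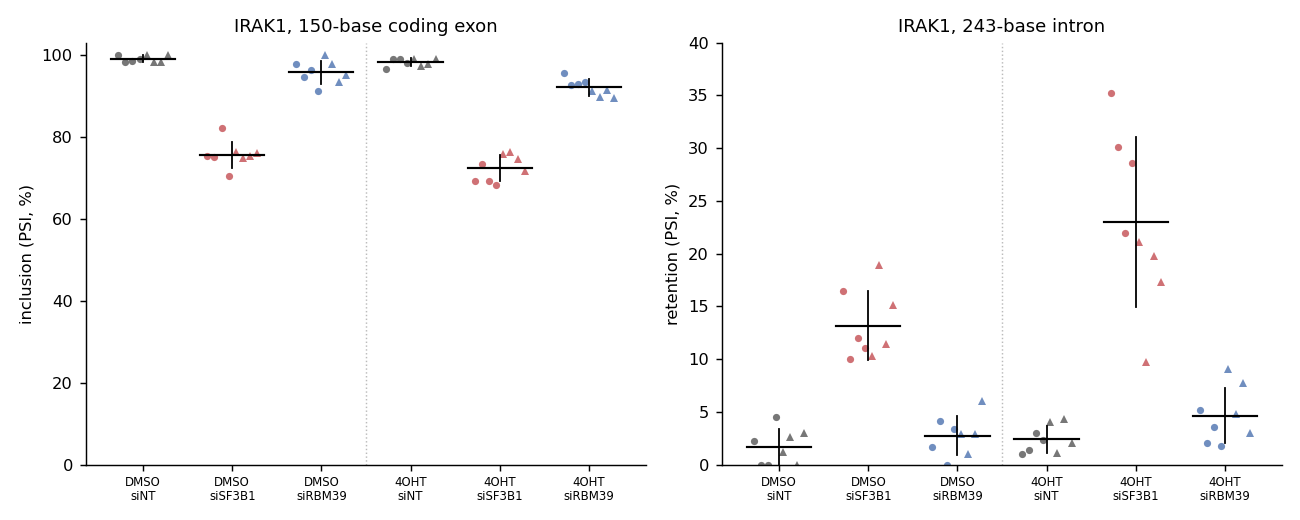
PSI in percent of the 150-base exon (left) and the 243-base intron (right) of IRAK1 in each library by group, drawn as for the cytokines. Exon inclusion with siSF3B1 lies between 68.2 and 82.1% and does not reach the 96.7 to 100% of the siNT libraries, while intron retention reaches 35.2%.

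Over the whole gene, the log2 difference of IRAK1 counts with siSF3B1 was -0.12 ± 0.07 in DMSO (edgeR adjusted p = 0.120) and -0.14 ± 0.07 in 4OHT (edgeR adjusted p = 0.0825), and whether it passed the test depended on the fit. In DMSO it was called with 1 mean per siRNA (0.040), without replicate 1 (0.043) and on only the groups compared (0.00561), and in 4OHT in the fits named above. By siRNA it was called lower with siSF3B1-16 (adjusted p = 0.00215 for -0.25 in DMSO, and 0.0462 for -0.16 in 4OHT). The call in 4OHT was lost with DESeq2 (adjusted p = 0.053), and by edgeR with the replicate block (0.0501) and without replicate 1 (0.061), 2 (0.094) or 3 (0.117). With siSF3B1-13 in 4OHT IRAK1 was called lower by edgeR without the library that stood apart (-0.12, adjusted p = 0.0085) and without replicate 4 (-0.13, adjusted p = 0.022). 2 adjacent coding exons of IL6ST changed by less. The exon of 102 bases (HsaEX0031517, chr5:55248078-55248179) fell with siSF3B1 from a mean of 100% to 92.9 ± 5.95% in DMSO (limma adjusted p = 8.11e-09) and from 99.5 ± 0.563% to 93.4 ± 3.03% in 4OHT (adjusted p = 2.71e-07). The exon of 147 bases (HsaEX0031518, chr5:55247757-55247903) fell by 5.01 points in DMSO (adjusted p = 4.00e-11), a fall that was under the minimum without replicate 3 (-4.80 points) or 4 (-4.67 points), and by 5.62 points in 4OHT (adjusted p = 1.34e-11). Both lengths are multiples of 3.

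No event of these genes was called by limma between 4OHT and DMSO with siNT, siSF3B1 or siRBM39, where 0.913%, 2.83% and 1.2% of all events were called. At an unadjusted p under 0.05 limma gave 1, 2 and 2 of the 12 events. The 1 tested exon of IL1R1 (HsaEX0031411) differed by 4.27 points with siSF3B1 in 4OHT (limma adjusted p = 0.00285), under the minimum.

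The other genes of these pathways were described by lists. Of 26 further genes of IL-1 receptor signalling and the inflammasome, 16 were tested, and with siNT 7 were higher and 7 lower in 4OHT, where 78.1% of all genes were called, with a median log2 fold change of 0.01 against -0.0019 over all genes. IRAK2, a kinase of the same receptor complex, rose from 9.89 ± 0.707 to 78.6 ± 1.62 CPM and IRAK3, an inhibitory relative, from 3.24 ± 0.341 to 12.4 ± 0.627 CPM, while CASP1, the protease that matures IL-1β, fell from 47.3 ± 2.34 to 8.81 ± 0.836 CPM and PELI2, a ubiquitin ligase of IRAK signalling, from 27.8 ± 1.48 to 8.35 ± 0.543 CPM. With siSF3B1 in 4OHT, 7 were higher and 7 lower, where 77.0% of all genes were called, PELI2 rising to 29.9 ± 4.61 CPM and GSDMD, the pore former through which IL-1β can leave cells, falling from 5.66 ± 0.581 to 1.47 ± 0.377 CPM.

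Of 19 further genes of the IL-6 family, 15 were tested, and 5 were higher and 6 lower in 4OHT with siNT (median -0.02), beside the 78.1% of all genes called. OSMR, a partner chain of gp130, rose from 213.5 ± 9.63 to 605 ± 21.1 CPM and SOCS3, a feedback inhibitor of gp130, from 37.1 ± 2.22 to 105 ± 10 CPM. SOCS1, another feedback inhibitor, fell from 28.7 ± 2.11 to 4.44 ± 0.470 CPM, and IL11RA, the receptor chain specific for IL-11, from 13.8 ± 1.41 to 2.60 ± 0.201 CPM, while IL11 itself rose. With siSF3B1 in 4OHT 7 were higher and 5 lower, beside 77.0% of all genes, SOCS3 rising to 217 ± 12.1 CPM.

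Of 20 other interleukins and colony-stimulating factors, 11 were tested, 8 higher and 3 lower in 4OHT with siNT (median 1.08), beside the 78.1% of all genes called. CSF3 was at 0 in every DMSO library with siNT and reached 166.9 ± 11.6 CPM in 4OHT, and CSF2 went from a mean of 0.00969 CPM to 58.9 ± 7.52 CPM. Neither gene could pass the filter on counts through the DMSO libraries with siNT, so their rises and the count of 8 are descriptions. CSF1 fell from 101.7 ± 3.11 to 30.6 ± 4.51 CPM and TSLP from 11.5 ± 2.04 to 2.72 ± 0.305 CPM. With siSF3B1 in 4OHT 3 were higher and 4 lower, beside 77.0% of all genes, CSF2 falling to 26.5 ± 7.74 CPM and IL15RA from 10.9 ± 1.14 to 2.45 ± 1.48 CPM. With siRBM39 in 4OHT the 3 lists had 5 higher and 3 lower, 7 higher and 4 lower, and 3 higher and 4 lower, where 56.4% of all genes were called, and none of these genes was called at 2-fold or more.

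As a description of likeness, the genes whose log2 CPM followed IL1B most closely over the 48 libraries were the matrix metalloproteinases MMP3 (Pearson r = 0.996) and MMP1 (r = 0.995) and the transcription factor FOXQ1 (r = 0.995). For IL1A they were TNFSF15 (r = 0.992), MME (r = 0.992) and the chemokine CXCL6 (r = 0.992), and for IL6 GFPT2 (r = 0.992), LIPG (r = 0.990) and ROBO4 (r = 0.984). The points share 2 widely separated treatments, and within the 24 4OHT libraries the values ranged from 0.509 for FOXQ1 with IL1B to 0.965 for GFPT2 with IL6. In 4OHT the mean level of GFPT2 was 279.6 CPM with siNT, 125 CPM with siSF3B1 and 118 CPM with siRBM39.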

How the data were processed

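The 48 libraries of mRNA from IMR90 cells were grouped by treatment and siRNA target from the sample labels, which give 4 replicates per siRNA where the study's methods state 3. For 4 siNT2 libraries in 4OHT 1 label field names siNT1, and the title was followed. The authors deposited raw read counts and mappability-corrected RPKM values (cRPKM) per gene, made with vast-tools version 2 (its align step with expression output on the VAST-DB hg19 annotation, lanes merged per sample), and, from the same tool, percent spliced in (PSI) with the reads behind each event. Other settings are not given in the sources used here.

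Genes with at least 10000 counts over all libraries (9991 of 19847 entries, 338 of which held no counts) were tested with edgeR 4.0.16 (R 4.3.3), with TMM factors, quasi-likelihood tests on 6 group means, and Benjamini-Hochberg adjustment over all tested genes at 0.05. Fits of single siRNAs had a mean for each siRNA and treatment. PSI was tested on the logit scale with limma 3.58.1 over 12921 events with a PSI in each library, coverage of at least the VLOW class and a range of at least 5 points. Counts of libraries of 1 siRNA differed by more than sampling noise in each of 72 pairs (lowest chi-square per degree of freedom 2.13). Both procedures were tested on simulated data.

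The genes and gene lists were chosen with earlier results of these data known. The text names the 10 genes, SF3B1 and RBM39, and 4 check genes of proliferation and senescence. From each list came the 2 largest rises and falls past the test, 2-fold and without overlap. They were taken for 4OHT with siNT and for each knockdown in 4OHT. The text also names the 3 genes that correlate best with IL1A, IL1B and IL6, and events called in any comparison. The IL1R1 exon was added after its value was seen. Replicate numbers did not pair libraries. Alternatives were DESeq2 1.42.0, limma-voom, other filters, only the groups compared, a 2-fold minimum, a replicate block and leaving out libraries.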

Additional observations from a re-analysis of the deposited data

Results flagged for a closer look

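In groups of 8 libraries, 1 library lay far from the rest by Dixon's criterion in 10 of the 84 groups examined, where chance gives about 1 in 20. For 5 genes it was the same library, replicate 4 of siRBM39-08 in 4OHT, with 20.1 CPM of IL1A, 241 CPM of IL11, 1.58 CPM of IL1RAP, 409 CPM of IL6ST and 325 CPM of IRAK1.

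The others were single values. IL1B reached 1.57 CPM in replicate 1 of siSF3B1-16 in DMSO, and LIF was at 65.4 CPM in replicate 1 of siNT1 in DMSO. IL1RN had 0.0575 CPM in replicate 2 of siSF3B1-13 in DMSO, where the other libraries of the group were at 0. The 102-base exon of IL6ST was included at 79.8% in that same library, and its 147-base exon at 98.5% in replicate 3 of siRBM39-08 in 4OHT.

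The effect of siSF3B1 differed between 4OHT and DMSO by edgeR's interaction test for IL1B (-1.07 on the log2 scale), IL6 (-1.41), IL11 (0.82), LIF (-0.46) and IL1R1 (1.66). The effect of siRBM39 differed for IL1B (-2.23), IL6 (-1.86), LIF (-0.74), IL1R1 (0.57) and, under the lower filter, IL1RAP (-0.75).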

How the results depend on the processing

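No called value for a gene changed sign under any alternative run. Of 1091 values for the 6 groups, 1043 kept their side of the threshold, 26 lost the call and 22 gained one, and of 1008 values for single siRNAs 945 kept it, 33 lost it and 30 gained it. With a 2-fold minimum the count of genes called went from 8 to 5 for 4OHT with siNT, from 6 to 1 for siSF3B1 in DMSO and to 3 in 4OHT, from 3 to 1 for siRBM39 in DMSO and from 5 to 1 in 4OHT, to 3 and 2 for the interactions, to 2 for siSF3B1 against siRBM39, from 46 to 13 for single siRNAs and from 17 to 0 between siRNAs of a target. A fit on only the groups compared called 3 genes for siSF3B1 and 1 for siRBM39 in DMSO, where IL1A, IL1B, IL6 and IL11 fell under the count minimum and were not tested, so that for siSF3B1 LIF lost a call and IRAK1 gained one. With at least 5 counts in each library siRBM39 in 4OHT called 3, since IL1A and IL1B were not tested. A 10-point minimum left 4 of 9 splicing calls. Leaving out a replicate gave 1 to 3 genes for siRBM39 in DMSO, 4 to 6 for siSF3B1 in DMSO, 38 to 48 for single siRNAs and 14 to 23 between siRNAs of a target. Same-numbered libraries correlated at a median of 0.0123 over 264 pairs, with 78 over 0.1, against 213 of 792 pairs with different numbers. With the replicate block, single siRNAs called 45 values and siRNAs of a target 18, and the other counts were the same (8 for 4OHT with siNT). Leaving out replicate 1 of siRBM39-06 in DMSO, an alternative chosen after seeing the data, called 5 genes for siSF3B1 and 2 for siRBM39 in DMSO, 7 for siSF3B1 in 4OHT, and otherwise the same numbers. Genes at a few reads a library in DMSO, IL1A, IL1B and IL1RN, limit the precision of their fold changes.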

Other observations

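Between the non-targeting siRNAs in 4OHT, the log2 difference of siNT2 from siNT1 was -0.23 ± 0.11 for IL1B, -0.34 ± 0.11 for IL6, -0.25 ± 0.08 for IL11 and -0.12 for LIF. None passed edgeR's adjusted test with all libraries (adjusted p from 0.261 for IL11 to 0.854 for LIF), but without replicate 4 of siRBM39-08 in 4OHT 3 did (IL6 0.00145, IL11 0.00379, IL1B 0.0472). Without replicate 4 of each siRNA IL6 (0.0256) and IL11 (0.0364) did, and for IL6 the adjusted p was from 0.9798 to 0.9999 without replicate 1, 2 or 3.

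In DMSO the 4 siRBM39-06 libraries split for IL6ST, with 401 and 453 CPM in replicates 1 and 3 and 634 and 652 CPM in replicates 2 and 4.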
